A study of Mus musculus with 18 samples.

Results

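The 10 transcription factors whose RNA is used to tell brown from white fat, and fat depots from each other, were followed on the 18 arrays of the series. They are Zic1, Lhx8, Prdm16, Ebf1, Ebf2, Ebf3, Tbx1, Tbx15, Tcf21 and En1, chosen by name, and every probe set annotated to them alone was taken, which gave 24 probe sets for these 10 genes out of 45037 probe sets and 18193 named genes in the table. Fat came from 10-week-old female Sv129 mice, singly caged for 10 days at either 28°C, which is close to thermoneutrality for a mouse, or 6°C. Interscapular brown adipose tissue (BAT), subcutaneous white adipose tissue (sWAT) and mesenteric white adipose tissue (mWAT), the fat along the gut, were each measured on 3 arrays per temperature, which makes 6 groups. All mice were unmanipulated apart from the housing temperature, and the labels do not say which arrays came from the same mouse, so replicate numbers only name the arrays.

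Brown and white fat cells arise from different embryonic precursors, and adult depots keep transcription factors that record that origin. ZIC1, a zinc finger protein, and LHX8, a LIM homeodomain protein, are used as markers of classical brown fat, while PRDM16, a zinc finger coregulator, and EBF2, an early B cell factor that opens chromatin at brown fat genes with PPARγ, drive the brown program itself. TBX1 is used as a marker of beige adipocytes, TBX15 is a T-box factor of mesoderm-derived tissues, TCF21 is a basic helix-loop-helix factor of visceral mesenchyme, and EN1 is a homeodomain factor expressed in part of the dermomyotome, from which brown fat, muscle and dermis descend.

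The start regions of these genes differ in base composition, and RefSeq (GRCm38.p6) windows that run from 250 bases before to 50 bases after the gene start were found for 8 of the 10 genes, 10 windows in all. The 4 windows below are shown because their genes carry the depot patterns reported here, Zic1 and Prdm16 highest in BAT, Tcf21 highest in mWAT and En1 highest in sWAT. They lie at chr9:91365719-91366018 (minus strand), chr4:154636824-154637123 (minus strand), chr10:22820094-22820393 (minus strand) and chr1:120602237-120602536 (plus strand), in that order. Capitals mark CpG dinucleotides, and each sequence reads 5′ to 3′ along the gene.
Zic1: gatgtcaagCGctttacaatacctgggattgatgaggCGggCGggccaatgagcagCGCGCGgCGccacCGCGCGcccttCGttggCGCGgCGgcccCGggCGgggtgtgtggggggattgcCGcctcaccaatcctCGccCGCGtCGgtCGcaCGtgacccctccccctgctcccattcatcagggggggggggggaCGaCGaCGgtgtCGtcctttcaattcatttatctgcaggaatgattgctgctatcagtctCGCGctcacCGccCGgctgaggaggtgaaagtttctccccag
Prdm16: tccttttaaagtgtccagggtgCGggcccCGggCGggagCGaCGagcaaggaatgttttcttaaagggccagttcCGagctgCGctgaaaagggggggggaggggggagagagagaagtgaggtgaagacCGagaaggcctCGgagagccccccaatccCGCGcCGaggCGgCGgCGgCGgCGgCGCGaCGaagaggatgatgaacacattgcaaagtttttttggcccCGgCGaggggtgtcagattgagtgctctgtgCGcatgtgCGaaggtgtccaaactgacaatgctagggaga
Tcf21: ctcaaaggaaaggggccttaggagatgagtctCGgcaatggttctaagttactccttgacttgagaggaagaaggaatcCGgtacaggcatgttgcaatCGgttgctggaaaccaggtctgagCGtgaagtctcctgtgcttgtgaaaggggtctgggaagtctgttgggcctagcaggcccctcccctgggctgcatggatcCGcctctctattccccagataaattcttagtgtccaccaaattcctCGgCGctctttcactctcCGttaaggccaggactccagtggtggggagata
En1: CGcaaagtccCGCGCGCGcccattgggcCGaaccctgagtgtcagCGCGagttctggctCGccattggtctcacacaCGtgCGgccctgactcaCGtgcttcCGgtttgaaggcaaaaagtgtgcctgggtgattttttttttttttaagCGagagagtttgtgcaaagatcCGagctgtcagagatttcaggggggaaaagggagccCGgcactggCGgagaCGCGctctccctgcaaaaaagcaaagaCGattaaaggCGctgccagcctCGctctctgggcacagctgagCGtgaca
The Zic1, Prdm16 and En1 windows held 31, 24 and 23 CpG, against 8 in the Tcf21 window and a median of 7 over 32851 mouse windows of the same length. GC content of the members' windows ran from 36.7% in the upstream Ebf1 window to 77% at Ebf3, with a median of 52.7% over all windows.

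All values below are the log2 of the deposited probe set intensity, so a difference of 1 is a doubling. Each gene is described by its brightest probe set, and levels are compared between depots for the same probe set only, since probe sets differ in how brightly they read. Differences are given with their standard error (SE) from 1 linear model over all 18 arrays (limma, described after this report), and a gene is called when its p, adjusted by Benjamini-Hochberg over 45037 probe sets, is under 0.01. Called genes are set against the share of all 18193 genes called the same way. In whole tissue, fewer cells of a type and less RNA per cell cannot be told apart.

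The depots read as named. Over 17 measured brown fat thermogenesis genes the mean log2 intensity was between 11.4 and 12.3 on the BAT arrays, 8.30 to 8.73 in sWAT at 28°C, 10.5 to 11 in sWAT at 6°C and 7.91 to 8.99 in mWAT. Mesothelium markers averaged at least 9.87 on the mWAT arrays and at most 7.92 on any other array. The tissue or temperature among the other sample characteristics contradicted the title on 18 of 18 arrays, and the titles were used. Groups by title held 70.3 to 99.7% of each member's variance, and groups by those characteristics 57.0 to 71.6%. Array medians lay between 6.97 and 7.20. Centring the arrays on these medians would raise the median difference over all probe sets from 0.11 to 0.25 for BAT minus sWAT and from 0.12 to 0.25 for BAT minus mWAT at 28°C, and the share of called probe sets that are higher in BAT from 57.8% to 71.3% and from 58.1% to 69.2%. At 6°C that share would go from 56.4% to 73.1% and from 57.9% to 72.5%. Of the differences between depots given below for the 10 genes, centring changed 1 call, that of Ebf3 between BAT and sWAT at 6°C. Since the mice were female, probe sets for Y-linked genes show what the array reads where RNA is absent, and the 6 measured read 2.62 to 8.07 (median 3.81). Such probe sets also moved between depots. Usp9y, also Y-linked, was 1.22 ± 0.24 higher in BAT than in mWAT at 6°C, and 3 of the 6 were called higher there, so a difference of about that size in a gene this dim is no larger than probe sets for absent RNA can show. The mesenteric arrays named replicate 3 at each temperature stood apart. Their correlation was 0.991, while the 4 remaining mWAT arrays reached at most 0.969 with either of them and at least 0.979 among themselves, and results that rest on them are also given without them.

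**Figure D1:**
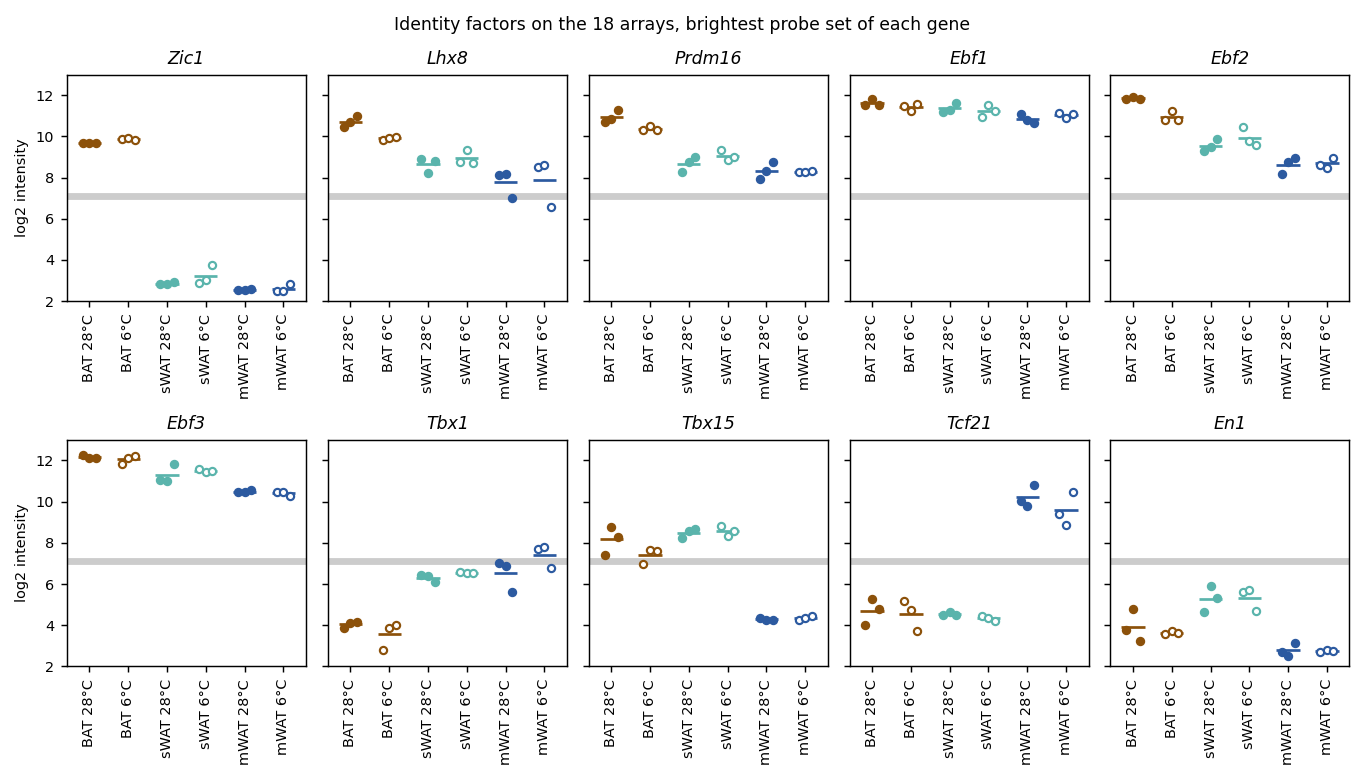
Log2 intensity of the brightest probe set of each of the 10 genes (y axis) on the 3 arrays of each depot and temperature (x axis), filled points at 28°C and open points at 6°C, with the group mean as a bar and the range of the 18 array medians, 6.97 to 7.20, as a grey band. Zic1 is above the band on the 6 BAT arrays alone, Tcf21 on the 6 mWAT arrays alone, and Tbx15 is below it on every mWAT array.

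Zic1 was the sharpest divider of BAT from white fat. On the BAT arrays it read 9.67, 9.69 and 9.68 at 28°C and 9.85, 9.93 and 9.84 at 6°C. In sWAT it read 2.82, 2.81 and 2.91 at 28°C and 2.87, 3.01 and 3.74 at 6°C, and in mWAT 2.55, 2.53 and 2.57, then 2.50, 2.50 and 2.82. All white fat values were below the median (3.81) of the Y-linked probe sets, and no white fat array came near a BAT array. At 28°C Zic1 was 6.83 ± 0.17 higher in BAT than in sWAT (adjusted p = 1.2e-11) and 7.13 ± 0.17 higher than in mWAT (adjusted p = 6.5e-12). Because white fat read as low as probe sets for absent RNA, the true size of these differences is not measured. Depot accounted for 99.6% of the variance of Zic1 over the 18 arrays, the highest share of the 10 genes.

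Lhx8 was also highest in BAT, by less, and was well above the array medians in sWAT. It read 10.44, 10.68 and 10.98 in BAT at 28°C against 8.91, 8.24 and 8.78 in sWAT and 8.12, 8.19 and 7.0 in mWAT. At 6°C it read 9.83, 9.92 and 9.98 in BAT, 8.74, 9.35 and 8.70 in sWAT, and 8.52, 8.63 and 6.56 in mWAT. Every BAT array was above every white fat array, and every sWAT array was above every mWAT array at the same temperature, narrowly at the nearest pair. The BAT excess at 28°C was 2.06 ± 0.45 over sWAT (adjusted p = 0.0024) and 2.93 ± 0.45 over mWAT (adjusted p = 0.00011). The excess over sWAT lost its call without replicate 3 of BAT at 28°C (1.92, adjusted p = 0.012) and without replicate 2 of sWAT at 28°C (1.86, adjusted p = 0.014).

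Prdm16 followed the same order. It read 10.70, 10.84 and 11.29 in BAT at 28°C, against 8.27, 8.75 and 9.02 in sWAT and 7.92, 8.32 and 8.77 in mWAT. At 6°C the BAT arrays read 10.31, 10.48 and 10.30, the sWAT arrays 9.33, 8.83 and 9.01 and the mWAT arrays 8.25, 8.29 and 8.32. BAT stood clear of both white depots at both temperatures, and sWAT stood clear of mWAT only at 6°C. At 28°C the differences were 2.27 ± 0.23 from sWAT (adjusted p = 3.6e-06) and 2.61 ± 0.23 from mWAT (adjusted p = 6.5e-07). Of its 4 probe sets, 3 were called higher in BAT than in sWAT and in mWAT, comparisons in which 22.9% and 27.2% of all probe sets were called in either direction, and the dimmest (mean 4.90) was not called in either (0.60 ± 0.35 and 0.64 ± 0.35).

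The early B cell factors were graded. Ebf2 showed the largest steps of the family, with 11.83, 11.92 and 11.79 in BAT at 28°C, 9.28, 9.48 and 9.89 in sWAT, and 8.18, 8.75 and 8.96 in mWAT. The 3 depots did not overlap at 28°C, and BAT was 2.30 ± 0.25 above sWAT (adjusted p = 6.6e-06) and 3.22 ± 0.25 above mWAT (adjusted p = 2.1e-07). The 0.92 ± 0.25 by which sWAT exceeded mWAT was not called (adjusted p = 0.026). Both dimmer Ebf2 probe sets were called in the same comparisons with BAT, at 2.63 ± 0.16 and 3.22 ± 0.25 over sWAT.

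Ebf3 kept the order with smaller steps. It read 12.26, 12.10 and 12.10 in BAT at 28°C, 11.07, 11 and 11.84 in sWAT, and 10.45, 10.45 and 10.57 in mWAT. The depots did not overlap, and the differences were 0.85 ± 0.18 between BAT and sWAT (adjusted p = 0.0020), 1.67 ± 0.18 between BAT and mWAT (adjusted p = 4.5e-06) and 0.82 ± 0.18 between sWAT and mWAT (adjusted p = 0.0074). The first lost its call without BAT replicate 1 (0.795, adjusted p = 0.011), sWAT replicate 1 (0.73, adjusted p = 0.013) or sWAT replicate 2 (0.70, adjusted p = 0.013), all at 28°C. The third kept its call only when the array left out was replicate 1 or 3 of BAT at 6°C, 1 or 2 of sWAT at 28°C or 3 of mWAT at 6°C, and otherwise had an adjusted p of 0.010 to 0.030. Both dimmer Ebf3 probe sets gave larger differences from sWAT, 1.46 ± 0.23 and 1.49 ± 0.29.

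Ebf1 differed least. Its brightest probe set read 11.54, 11.83 and 11.52 in BAT at 28°C, 11.17, 11.29 and 11.60 in sWAT and 11.09, 10.77 and 10.65 in mWAT. BAT and sWAT overlapped, and BAT was above every mWAT array. The BAT excess over mWAT was 0.79 ± 0.17 (adjusted p = 0.0020) and was not called without BAT replicate 2 (0.69, adjusted p = 0.012), and the 0.28 ± 0.17 over sWAT was not called (adjusted p = 0.23). The other 4 Ebf1 probe sets, all dimmer, were each called higher in BAT than in sWAT, by 0.60 to 1.44, so the brightest probe set alone missed that comparison.

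**Figure D2:**
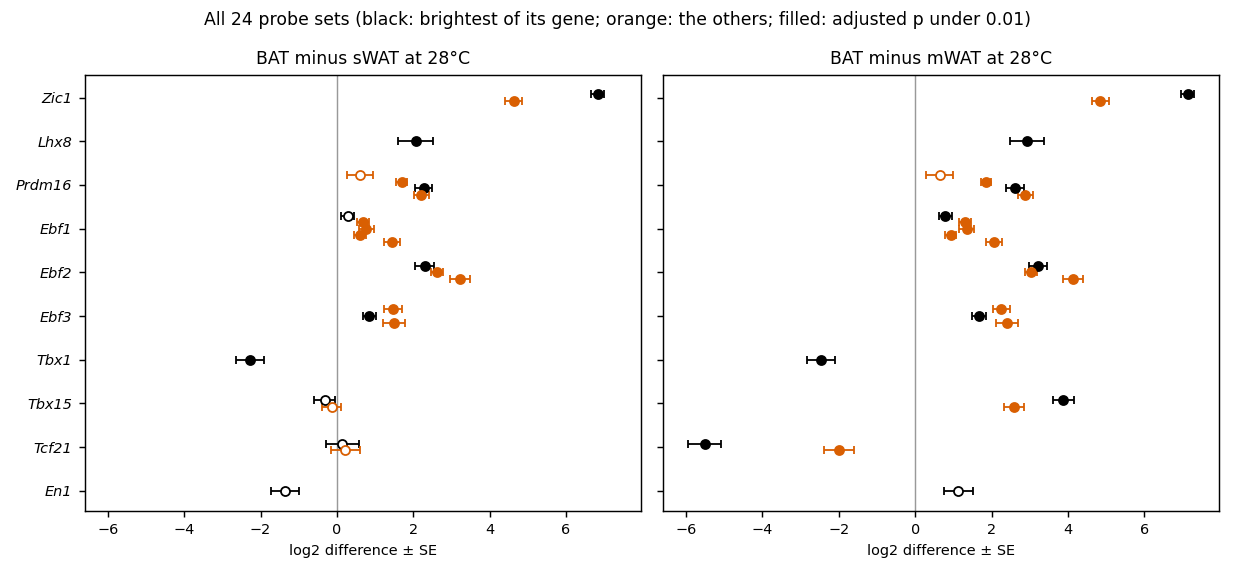
Log2 difference between depots at 28°C ± SE (x axis) of all 24 probe sets, ordered by gene (y axis), with the brightest probe set of a gene in black, the others in orange, and filled points for an adjusted p under 0.01. All probe sets of Zic1, Ebf2 and Ebf3 lie to the right in both panels, and the 5 Ebf1 probe sets lie between 0.28 and 1.44 in BAT minus sWAT.

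The T-box factors Tbx1 and Tbx15 did not share a pattern. Tbx1, measured by 1 probe set, read lowest in BAT, at 3.88, 4.11 and 4.16 at 28°C and 2.82, 3.87 and 4.01 at 6°C. In sWAT it read 6.46, 6.39 and 6.10, then 6.60, 6.54 and 6.53. In mWAT it read 7.04, 6.89 and 5.63, then 7.68, 7.79 and 6.77. No BAT array reached any white fat array, and sWAT and mWAT overlapped at 28°C only. At 28°C Tbx1 was lower in BAT by 2.27 ± 0.37 on the log2 scale than in sWAT (adjusted p = 0.00023) and by 2.47 ± 0.37 than in mWAT (adjusted p = 8.2e-05). The BAT values lay around the median (3.81) of the Y-linked probe sets. The white fat values, 5.63 to 7.79, were also within the Y-linked range of 2.62 to 8.07. The top of that range is Sry, at 6.43 to 8.07, and the next highest, Zfy2, read 4.95 to 6.47. Of the 6 groups, 5 were under their array medians on every array.

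Tbx15 was low in mWAT and set it apart from both sWAT and BAT. It read 8.23, 8.59 and 8.65 in sWAT at 28°C and 7.41, 8.79 and 8.29 in BAT, which overlapped, against 4.35, 4.25 and 4.26 in mWAT. At 6°C it read 8.80, 8.33 and 8.56 in sWAT, 6.97, 7.67 and 7.62 in BAT and 4.24, 4.35 and 4.45 in mWAT. The mWAT arrays lay within 0.21 of each other and far below the rest. At 28°C mWAT was lower than sWAT by 4.20 ± 0.28 (adjusted p = 1.9e-07) and lower than BAT by 3.88 ± 0.28 (adjusted p = 1.2e-07), and BAT and sWAT differed by -0.32 ± 0.28 (adjusted p = 0.38). The second Tbx15 probe set gave 2.73 ± 0.26 and 2.59 ± 0.26 for the first pair of differences.

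Tcf21 was the mirror of Tbx15. It read 10.05, 9.77 and 10.80 in mWAT at 28°C and 9.41, 8.85 and 10.47 at 6°C. In BAT it read 3.99, 5.28 and 4.80, then 5.17, 4.76 and 3.74, and in sWAT 4.50, 4.66 and 4.50, then 4.44, 4.35 and 4.20. Only mWAT was above the array medians, and BAT and sWAT overlapped. At 28°C mWAT exceeded sWAT by 5.65 ± 0.43 (adjusted p = 6.8e-07) and BAT by 5.51 ± 0.43 (adjusted p = 2.5e-07). The dimmer Tcf21 probe set moved the same way, at 2.22 ± 0.39 and 2.0 ± 0.39. Levels in BAT and sWAT lay among those of the Y-linked probe sets, so the size of the difference is not measured.

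En1 read under the array median on all 18 arrays, and was highest in sWAT. It read 4.64, 5.89 and 5.32 in sWAT at 28°C and 5.63, 5.72 and 4.69 at 6°C. In BAT it read 3.75, 4.78 and 3.25, then 3.57, 3.74 and 3.62, and in mWAT 2.70, 2.53 and 3.16, then 2.68, 2.80 and 2.73. BAT and sWAT overlapped at 28°C, while sWAT and mWAT did not at either temperature. At 28°C sWAT was 2.49 ± 0.37 above mWAT (adjusted p = 0.00036). It was 1.36 ± 0.37 above BAT with an adjusted p of 0.0103, just past the threshold, and was called without BAT replicate 2 (1.79 higher, adjusted p = 0.0015), sWAT replicate 1 (1.68 higher, adjusted p = 0.0050) or sWAT replicate 3 at 6°C (adjusted p = 0.0073). Its 1.13 ± 0.37 between BAT and mWAT was not called (adjusted p = 0.025), and was without BAT replicate 3 (1.47, adjusted p = 0.0082).

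Counted together at 28°C, 5 of the 10 genes were called higher in BAT than in sWAT (Zic1, Lhx8, Prdm16, Ebf2 and Ebf3), where 14.5% of all genes were, and Tbx1 was called lower, where 13% were. Between BAT and mWAT 7 were called higher, against 17.7% of all genes, and 2 lower (Tbx1 and Tcf21), against 14.8%. Between sWAT and mWAT 3 were called higher (Ebf3, Tbx15 and En1), against 3.05%, and Tcf21 lower, against 4.82%. The median size of the difference over the 10 genes was 1.71, 2.77 and 0.84 in these comparisons, beside 0.46, 0.49 and 0.22 over all genes. The 10 genes were chosen with earlier results of these data known, so these counts and sizes describe them and are no test.

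**Figure D3:**
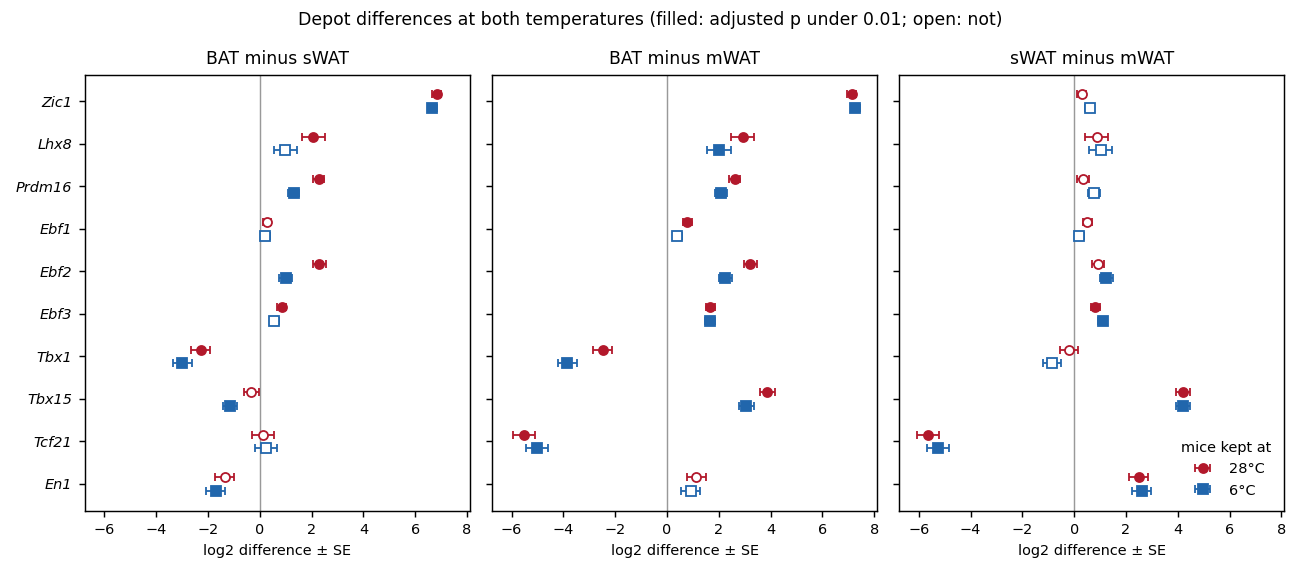
Log2 difference between depots ± SE (x axis) for the brightest probe set of each of the 10 genes (y axis), circles at 28°C and squares at 6°C, filled where the adjusted p was under 0.01. Zic1 lies between 6.66 and 7.27 in both comparisons with BAT, Tcf21 between -5.65 and -5.02 wherever mWAT is subtracted, and Ebf2 is nearer to 0 at 6°C than at 28°C in BAT minus sWAT.

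The depot order held in the cold for most of the genes. Between BAT and mWAT 8 genes were called in the same direction at both temperatures, between BAT and sWAT 4 (Zic1, Prdm16, Ebf2 and Tbx1) and between sWAT and mWAT 4 (Ebf3, Tbx15, Tcf21 and En1). The share of all genes called at both temperatures was not counted, so these counts only describe the members. At 6°C 3 genes were called higher in BAT than in sWAT and 3 lower, where 13.4% of all genes were called each way. Zic1 was 6.66 ± 0.17, Prdm16 1.30 ± 0.23 and Ebf2 1.0 ± 0.25 higher in BAT, and Tbx1 was lower by 2.99 ± 0.37, En1 by 1.70 ± 0.37 and Tbx15 by 1.15 ± 0.28 on the log2 scale. The 0.98 ± 0.45 of Lhx8 and the 0.56 ± 0.18 of Ebf3 were not called (adjusted p = 0.098 and 0.024). Both dimmer Ebf3 probe sets stood further apart, with means of 9.71 in BAT and 8.59 in sWAT, and of 9.83 and 8.36. With only the arrays of the groups compared in the limma fit, Lhx8 was called at the same 0.98 (adjusted p = 0.0089).

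Several of these calls at 6°C were lost when 1 array was left out, some of them at nearly the same difference. The Ebf2 call was lost without any 1 of the 3 BAT arrays (0.85 to 1.08, adjusted p = 0.011 to 0.028) and without sWAT replicate 2 or 3 (0.92 and 0.83, adjusted p = 0.025 and 0.030). The Tbx15 call was lost without BAT replicate 1 (-0.92, adjusted p = 0.027), sWAT replicate 1 (-1.03, adjusted p = 0.022) or sWAT replicate 3 (-1.145, adjusted p = 0.015). It was also lost in limma with the mean of its probe sets (-0.719, adjusted p = 0.021). The dimmer Tbx15 probe set had means of 5.91 in BAT and 6.20 in sWAT. The En1 call was lost without BAT replicate 1 (-1.67, adjusted p = 0.0101), sWAT replicate 1 (-1.56, adjusted p = 0.012) or sWAT replicate 2 (-1.52, adjusted p = 0.014). Ebf3 was called without sWAT replicate 3 at 28°C (adjusted p = 0.0020) and with the arrays centred (0.725, adjusted p = 0.0043). It was also called in limma with the mean of its probe sets (1.05, adjusted p = 0.0016) and with its most significant probe set (1.47, adjusted p = 0.0012). Zic1, Prdm16 and Tbx1 kept their calls whichever array was left out.

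Between BAT and mWAT at 6°C 6 genes were called higher, where 21.3% of all genes were, and 2 lower, where 18.9% were. They were Zic1 at 7.27 ± 0.17, Tbx15 at 3.07 ± 0.28, Ebf2 at 2.24 ± 0.25, Prdm16 at 2.07 ± 0.23, Lhx8 at 2.01 ± 0.45 (1.34 without mWAT replicate 3, adjusted p = 0.0035) and Ebf3 at 1.66 ± 0.18, with Tcf21 at -5.02 ± 0.43 and Tbx1 at -3.85 ± 0.37. Between sWAT and mWAT 4 were called higher, against 5.17% of all genes, and Tcf21 lower, against 5.01%. Tbx15 was 4.21 ± 0.28, En1 2.61 ± 0.37, Ebf2 1.25 ± 0.25 and Ebf3 1.10 ± 0.18 higher in sWAT. The Ebf2 call was lost without mWAT replicate 1 (1.215, adjusted p = 0.014), mWAT replicate 2 (1.14, adjusted p = 0.016) or sWAT replicate 1 (1.0, adjusted p = 0.018).

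Between the temperatures none of the 10 genes passed the limma threshold in BAT, where 5.33% of all genes did, and 3 had an unadjusted p under 0.05. These were Ebf2, at -0.92 ± 0.25 (adjusted p = 0.025), Tbx15, at -0.75 ± 0.28 (adjusted p = 0.094), and Prdm16, at -0.59 ± 0.23 (adjusted p = 0.11). Lhx8 was not among them, though its mean in BAT was 10.7 at 28°C and 9.91 at 6°C, with no overlap of arrays. The model shares 1 spread per probe set over all groups. The SD of Lhx8 at 28 and 6°C was 0.67 and 1.16 in mWAT, against 0.27 and 0.07 in BAT. Ebf2 read 10.78, 11.23 and 10.77 in BAT at 6°C, below all 3 arrays at 28°C. The dimmest Ebf2 probe set moved by -0.92 ± 0.25 as well (adjusted p = 0.028), and the mean of the remaining one went from 8.96 to 8.45. The Prdm16 probe sets moved less evenly in BAT from 28 to 6°C. The mean of the second brightest went from 10.1 to 10.2, of the third from 8.16 to 8.02 and of the dimmest from 5.39 to 5.15. Of 15 preadipocyte and fibroblast genes, 2 were called lower in BAT in the cold, Dlk1 at -1.21 ± 0.25 and Dcn at -0.66 ± 0.15, none was called higher and 12 had an unadjusted p under 0.05 (median -0.55, beside 0.01 over all genes). The mean of that list was 10.4 to 10.8 on the BAT arrays at 28°C and 9.82 to 10.5 at 6°C, and its part in the Ebf2 values was not tested. Across all 24 probe sets the dimmest of Ebf1 alone was called, where 5.28% of all probe sets were, at -1.05 ± 0.21 (adjusted p = 0.0042), while its brightest moved by -0.20 ± 0.17. Tbx15 was called without BAT replicate 1 at 28°C (-1.125, adjusted p = 0.0067).

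In sWAT 0 of 10 genes were called in limma, none had an unadjusted p under 0.05, and 0.742% of all genes were called. Prdm16 and Ebf2 each moved by 0.38 in sWAT (SE 0.23 and 0.25), while 13 of the 17 brown fat thermogenesis genes were called higher there. In mWAT 0 of 10 were called, against 0.0055% of all genes, and Tbx1, at 0.89 ± 0.37, was the gene with an unadjusted p under 0.05. The cold response of Ebf2 differed between BAT and sWAT by -1.30 ± 0.35 and that of Prdm16 by -0.97 ± 0.32, and neither difference was called (adjusted p = 0.077 and 0.16). On the second brightest Prdm16 probe set the means rose in both depots, from 10.1 to 10.2 in BAT and from 7.89 to 8.24 in sWAT. On the third they went from 8.16 to 8.02 in BAT and from 6.47 to 6.60 in sWAT. No gene of the 10 was called for a difference in cold response between BAT and sWAT, BAT and mWAT, or sWAT and mWAT in limma, where 0.467%, 0.566% and 0% of all genes were, and 2, 2 and 0 had an unadjusted p under 0.05.

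Markers of other cell types moved with some of the genes. The mean of 20 skeletal muscle genes was 8.58, 12.43 and 11.95 on the BAT arrays at 28°C and 7.43, 9.90 and 8.11 at 6°C, and Tbx15 was lowest on the array with the least muscle signal and highest on the array with the most at each temperature. Of the 20 muscle genes, 0 were under the array median on all 3 BAT arrays at 28°C and 1 was at 6°C. With the muscle mean as a covariate, the cold difference of Tbx15 in BAT was -0.57 (adjusted p = 0.31), its excess over mWAT at 28°C was 3.61 (adjusted p = 6.6e-06) and its deficit to sWAT at 6°C was -1.17 (adjusted p = 0.0042). The muscle mean in mWAT at 28°C was 6.85 to 7.52, which did not overlap BAT. The 3.61 therefore rests on a slope carried beyond the values of either depot, and cannot give the difference at equal muscle content.

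In mWAT the mean of 14 B cell genes was 10.7 and 11 on replicates 1 and 2 at 28°C and 6.81 on replicate 3, and 10.8, 10.7 and 6.71 at 6°C. The mean of 9 T cell genes was 6.09 and 6.01 on the replicates 3 and at least 10.3 on the others. Lhx8 and Tbx1 were lowest and Tcf21 highest on replicate 3 at each temperature. Without both of these arrays Lhx8 was 2.54 higher in BAT than in mWAT at 28°C (adjusted p = 2.2e-06) and 0.98 higher in BAT than in sWAT at 6°C, now called (adjusted p = 0.0019). The difference from sWAT holds no mWAT array and kept its size, so its call changed through the shared spread. Tbx1 was then lower in BAT than in mWAT by 2.92 at 28°C, and lower in sWAT than in mWAT by 1.175 at 6°C, also now called (adjusted p = 0.0091). The Lhx8 excess over mWAT at 6°C was then 1.34 (adjusted p = 0.00032). Both Ebf1 between BAT and mWAT (0.695, adjusted p = 0.011) and Ebf3 between sWAT and mWAT (0.86, adjusted p = 0.018) lost their calls at 28°C without these arrays. Tcf21 was still 5.22 lower in BAT than in mWAT on the log2 scale (adjusted p = 5.8e-07). B cell genes also read low in BAT, between 5.40 and 6.65, and 8.49 to 10.6 in sWAT, and with the B cell mean as a covariate the Tbx1 deficit of BAT to sWAT at 28°C was -1.26 (adjusted p = 0.0072), the Ebf2 excess at 6°C 0.52 (adjusted p = 0.16) and the Prdm16 excess at 6°C 0.98 (adjusted p = 0.016). With that covariate 3 further calls were lost, those of Ebf3 between BAT and sWAT at 28°C (0.73, adjusted p = 0.037), Ebf1 between BAT and mWAT at 28°C (0.80, adjusted p = 0.016) and Tbx15 between BAT and sWAT at 6°C (-1.21, adjusted p = 0.025). Lhx8 was 2.21 higher in BAT than in sWAT at 6°C and called (adjusted p = 0.00026), and 3.37 higher at 28°C, and Ebf2 was called between sWAT and mWAT at 28°C (0.94, adjusted p = 0.0049). The Tbx1 deficit of BAT to mWAT at 28°C was -1.49 and the Lhx8 excess over mWAT at 6°C 3.235 (adjusted p = 0.0015 and 4.2e-06). In these fits the slope on the B cell mean comes from its spread within groups, which was widest in mWAT through the replicates 3. BAT and sWAT did not overlap in that mean, so the slope is carried beyond the values of either depot. The fits therefore cannot give the depot difference at equal B cell content.

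Tcf21 ordered the 6 mWAT arrays exactly as did the mean of 11 enteric nerve genes, which read 10.2, 9.96 and 10.9 at 28°C and 9.86, 9.76 and 10.8 at 6°C, and at most 6.22 in BAT and 5.54 in sWAT. The mean of 11 mesothelium genes was also highest on both replicates 3, at 11 and 11.1, against 9.87 to 10.3 on the other mWAT arrays. In sWAT 17 mammary epithelium genes averaged 9.66, 11.2 and 10.4 at 28°C, in the same order of arrays as En1, and 9.30, 9.11 and 9.11 at 6°C, where the order was not shared. Pancreas genes stood out on single arrays. The mean of 9 such genes was 14.1 on mWAT replicate 2 and 10.6 on BAT replicate 3 at 6°C, 10.1 on mWAT replicate 1 at 28°C and at most 7.0 on the other arrays. The part of mammary, gut nerve, mesothelial and pancreas cells in the members' values was not tested.

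**Figure D4:**
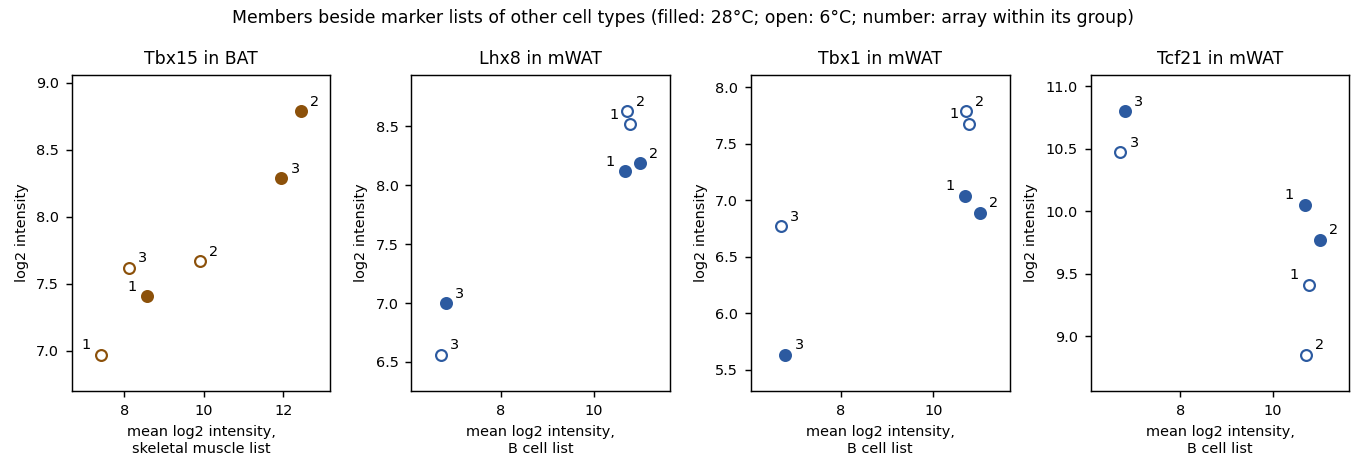
Log2 intensity of Tbx15 on the 6 BAT arrays against the mean log2 intensity of 20 skeletal muscle genes, and of Lhx8, Tbx1 and Tcf21 on the 6 mWAT arrays against the mean of 14 B cell genes, with filled points at 28°C, open points at 6°C and the replicate number beside each point. The mWAT replicates 3 lie apart at B cell means of 6.81 and 6.71, with the lowest Lhx8 and the highest Tcf21.

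Some of the members varied together over the 18 arrays, which share depots, so these correlations describe the depot pattern and carry no test. Prdm16 and Ebf2 had a Pearson r of 0.97, Zic1 and Prdm16 0.94, and Ebf2 and Ebf3 0.93, while Tbx15 and Tcf21 had -0.95 and Zic1 and Tbx1 -0.94. Of all other genes, those most like Zic1 were Myo5b (0.987), Eloc and Bri3, and those most like Prdm16 were Ntrk3 (0.989), Mrm3 and Nudt8. Lhx8 was followed most closely by AI606473 (0.986), Itpr2 and Cstf1, Ebf2 by Mtg1, Acad10 and Blcap, and Ebf3 by Kyat1, Mecom and Afap1l1. Mecom encodes a PRDM family protein related to PRDM16. Tbx1 was closest to Casp1 (0.981), which encodes an inflammatory protease, Serpinb1a, and C1qa, a complement gene of macrophages. Tcf21 was closest to Grem1 (0.991), a secreted BMP antagonist, Tac1, a neuropeptide precursor, and Stum, Tbx15 to Ripk4, Osr2 and Stk32b, and En1 to Dennd2c, Pik3r2 and Car6. Ebf1 spanned less than 1 across its group means, and no such genes were sought for it.

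The wider families can be read against all genes, of which 14.5% were called higher and 13% lower in BAT than in sWAT at 28°C, and 17.7% higher and 14.8% lower than in mWAT. Of 42 measured relatives of the members, 5 were called higher in BAT than in sWAT and 3 lower (median 0.12, beside 0.08 over all genes), and 8 higher and 2 lower than in mWAT (median 0.26, beside 0.08). The counts of higher genes are near those shares. Tbx5, a T-box factor of the heart and forelimb, was 1.78 ± 0.28 higher in BAT than in sWAT and 4.50 ± 0.28 higher than in mWAT. Tcf15, a basic helix-loop-helix factor of the somites, was 1.64 ± 0.25 and 2.26 ± 0.25 higher. Msc and Prdm6 were lower in BAT than in sWAT by 1.95 ± 0.44 and 1.54 ± 0.32, and Tbx18 was 3.53 ± 0.42 higher and Nhlh2 1.70 ± 0.37 lower in BAT than in mWAT on the log2 scale. Zic4, which lies beside Zic1 in the genome and is named after its values were seen, was 1.03 ± 0.24 higher in BAT than in sWAT, at levels among the Y-linked probe sets.

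Among 19 partners of PRDM16 and EBF2, 5 were called higher in BAT than in sWAT at 28°C and 3 lower (median -0.02), and 7 higher and 2 lower than in mWAT (median 0.10), beside 14.5% and 13%, and 17.7% and 14.8%, of all genes. Ppargc1b and Ppargc1a, coactivators of mitochondrial genes, were 2.93 ± 0.23 and 2.70 ± 0.40 higher in BAT than in sWAT, and Hlx, a homeobox factor, was 1.94 ± 0.24 higher. Zfp521, which opposes EBF proteins, was lower in BAT by 1.09 ± 0.24, and in BAT it fell by 1.33 ± 0.24 in the cold (adjusted p = 0.0028). Ppargc1b, Cebpb (1.78 ± 0.36), Pparg (1.51 ± 0.14) and Ppargc1a led the differences from mWAT.

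Among factors of the embryonic layers, the lateral plate list held the most genes lower in BAT than in mWAT. Of 24 lateral plate and visceral factors, 2 were called higher in BAT than in mWAT at 28°C and 12 lower (median -0.81), against 17.7% and 14.8% of all genes, and 4 were called higher in sWAT than in mWAT and 10 lower (median -0.64), against 3.05% and 4.82%. Bnc1, Foxf1, Wt1 and Foxf2 were lower in BAT than in mWAT by 7.18 ± 0.68, 6.38 ± 0.44, 4.89 ± 0.55 and 4.09 ± 0.44, and Bnc1 and Wt1 are also mesothelium markers. Shox2, a limb factor, was lower in BAT than in sWAT by 2.58 ± 0.19. Of 22 paraxial mesoderm and dermomyotome factors, 1 was called higher and 3 lower in BAT than in sWAT (median 0.55), led by Eya2 at -1.76 ± 0.19, and 5 higher and 1 lower than in mWAT (median 0.76), beside 14.5% and 13%, and 17.7% and 14.8%, of all genes. Six4, at 2.33 ± 0.36, and Myod1, a muscle factor, at 1.66 ± 0.45, were among those higher in BAT than in mWAT, and the muscle list was also higher on every BAT array at 28°C than on any mWAT array. Of 33 HOX genes 7 were called higher and 7 lower in BAT than in sWAT, and 1 higher and 6 lower than in mWAT, beside the same shares of all genes.

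The adipocyte lists stand beside 14.5% of all genes called higher and 13% lower in BAT than in sWAT at 28°C, and 17.7% called higher than in mWAT. Of 17 brown fat thermogenesis genes 14 were called higher in BAT than in sWAT at 28°C and 15 higher than in mWAT, with none lower. Of 9 beige adipocyte markers, the class for which Tbx1 is used, 2 were called higher and 4 lower in BAT than in sWAT (median -1.23). The lower ones were led by Cited1 at -4.49 ± 0.44 and Tmem26 at -2.56 ± 0.33, and the higher ones are not named here. None of these markers was called in sWAT between the temperatures, where 0.742% of all genes were. Of 11 white adipocyte genes none was called higher and 5 were called lower in BAT than in sWAT, led by Psat1 at -2.16 ± 0.23 and Trim14 at -1.50 ± 0.31.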

How the data were processed

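RNA of each depot was amplified, labelled and hybridised to Affymetrix arrays. The authors deposited 1 linear intensity for each of 45101 probe sets and array, after background adjustment, summarization and normalization in Bioconductor (affy). The algorithm is not given in the sources used here, the methods and legends name different array types, and the probe table used here is that of a mouse whole-genome design. Arrays were grouped by title. The log2 of the deposited intensity was taken with no filter, pseudocount or further normalization, after 64 control probe sets were left out. In limma 3.58.1 (R 4.3.3) lmFit and eBayes were run with 1 mean for each of 6 groups (12 residual and 2.64 prior degrees of freedom), and the p-values of each of 12 contrasts got a Benjamini-Hochberg adjustment across 45037 probe sets, with a threshold of 0.01. Genes are named from the probe table, in which 34945 of these probe sets have 1 gene, 932 several and 9160 none. A gene was read from its probe set of highest mean. The text names the 10 members with every probe set, up to 4 called genes of largest difference from each list not made of markers of other cell types, and the 3 most correlated genes for each member spanning at least 1 across group means. The members and lists were chosen with earlier results of these data known. P-values measure the spread between arrays, and 3 arrays a group limit the precision. The test was tried on simulated data. The alternatives were another threshold, a fold minimum, scaling, filter, probe set rule, variance model, set of arrays or covariate, and leaving out each array.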

Additional observations from a re-analysis of the deposited data

How the results depend on the processing

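Of 1585 values from 53 results for the 10 genes under 30 alternatives, 1503 kept their direction and their side of the threshold, 54 lost the call, 27 gained it and 1 reversed. Zic1 and Tcf21 kept every call. The reversal was Tbx15 between BAT and sWAT at 28°C, -0.638 to 0.054 when 1 array was left out and never called. Without 1 array, BAT and sWAT at 6°C gave 3 to 7 called genes (6 with all arrays) and BAT in the cold 0 to 1. In BAT between 6 and 28°C, 1 gene was called, against 0, with a threshold of 0.05, with any probe set of the gene, or with the B cell mean as a covariate, where it was Ebf2 (-0.917, adjusted p = 0.0058). Fitting only the arrays of the groups compared gave 2 genes between sWAT and mWAT at 28°C, against 4, and 931 probe sets of all, against 2631, with fewer residual degrees of freedom. For BAT and sWAT at 28°C, 10301 probe sets were called, 16567 with a threshold of 0.05 and 6064 with a minimum of 2-fold. In BAT in the cold 2377 were called, 1072 to 2718 without 1 array, 997 with the muscle mean and 4162 with the B cell mean as a covariate. In sWAT in the cold 216 were called, and 58 to 274 without 1 array. The causes of these changes were not tested. No paired analysis was possible because the labels give no mouse or replicate number that ties arrays of different groups. With 3 arrays a group, small differences can be missed. For En1 and Tbx1, Zic1 in white fat, Tcf21 in BAT and sWAT, and Tbx15 in mWAT, the signal was too near that of absent RNA to size a difference.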
